A study of Mus musculus with 2 samples.

Results

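RNA 3' end processing and decay genes were described in 1 column of poly(A) RNA counts from pSM44, a line of female mouse embryonic stem cells with 1 genome of the 129 strain and 1 of castaneus. Members were chosen by symbol, as the subunits of Integrator, the cleavage factors CPSF and CstF, the RNA exosome with the Dis3 nucleases, the UPF and SMG factors, CCR4-NOT with PAN2-PAN3, and the decapping factors with Xrn1 and Xrn2. The symbols matched 65 of 15127 listed protein-coding genes, and 4 more annotated genes matched but were not listed. The study has 1 group with 2 libraries, from cells kept in serum-free 2i/LIF medium and given 2 μg/mL doxycycline for 24 h. In this line doxycycline drives Xist, the RNA that silences an X chromosome, from a tetracycline-inducible promoter at its own locus on the 129 allele. The column summed to 10017978 counts and named no library, so each gene had 1 value with no replicate error, and no response to doxycycline was measured. Intervals given below are exact 95% Poisson or binomial intervals that cover counting error only.

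Most messenger RNAs are cut behind a poly(A) signal by CPSF with CstF and then receive a poly(A) tail, while Integrator cuts small nuclear RNAs and nascent transcripts near promoters. Decay of a messenger in the cytoplasm usually starts with shortening of the tail by PAN2-PAN3 and CCR4-NOT. It goes on by removal of the cap and digestion by Xrn1, or from the other end by the exosome. Nonsense-mediated decay (NMD) removes transcripts on which translation stops too early, and in embryonic stem cells CCR4-NOT subunits are known for helping to hold the undifferentiated state. The stem cell label fitted its markers, with 7100 counts for Pou5f1, 9026 for Nanog and 4742 for Zfp42. Esrrb had 7172 counts, Klf4 3123, Tfcp2l1 5178 and Dppa5a 47245. The fibroblast genes Col1a1 and Col1a2 had 58 and 66 counts, Col3a1 and Dcn were not listed, and Fgf5, Otx2, Gata6 and Sox17 had 1, 84, 19 and 81.

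The machinery was expressed throughout, at levels above the middle of the transcriptome. All 65 listed members were at CPM 1 or more (CPM is a gene's count for every 1000000 counts of the column; genes are listed from 1 count on), which is 65 of 69 annotated members, against 54.7% of 21897 annotated protein-coding genes. The share not listed was 4 of 69 for the machinery and 32.1% for all annotated genes. CPM 100 was reached by 22 of the 65, or 33.8%, against 15.5% of all listed genes. The median was 71.6 CPM for the members and 18.3 CPM for all listed genes. Since counts grow with transcript length, levels were compared between genes as counts per kilobase of exon, with the exons of all GENCODE M21 transcripts of a gene merged. On that scale the members had a median of 134, against 38.2 for all 14879 genes matched to the annotation, and 57 of the 65 lay above that median. Together the members held 0.655% of the counts.

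**Figure D1:**
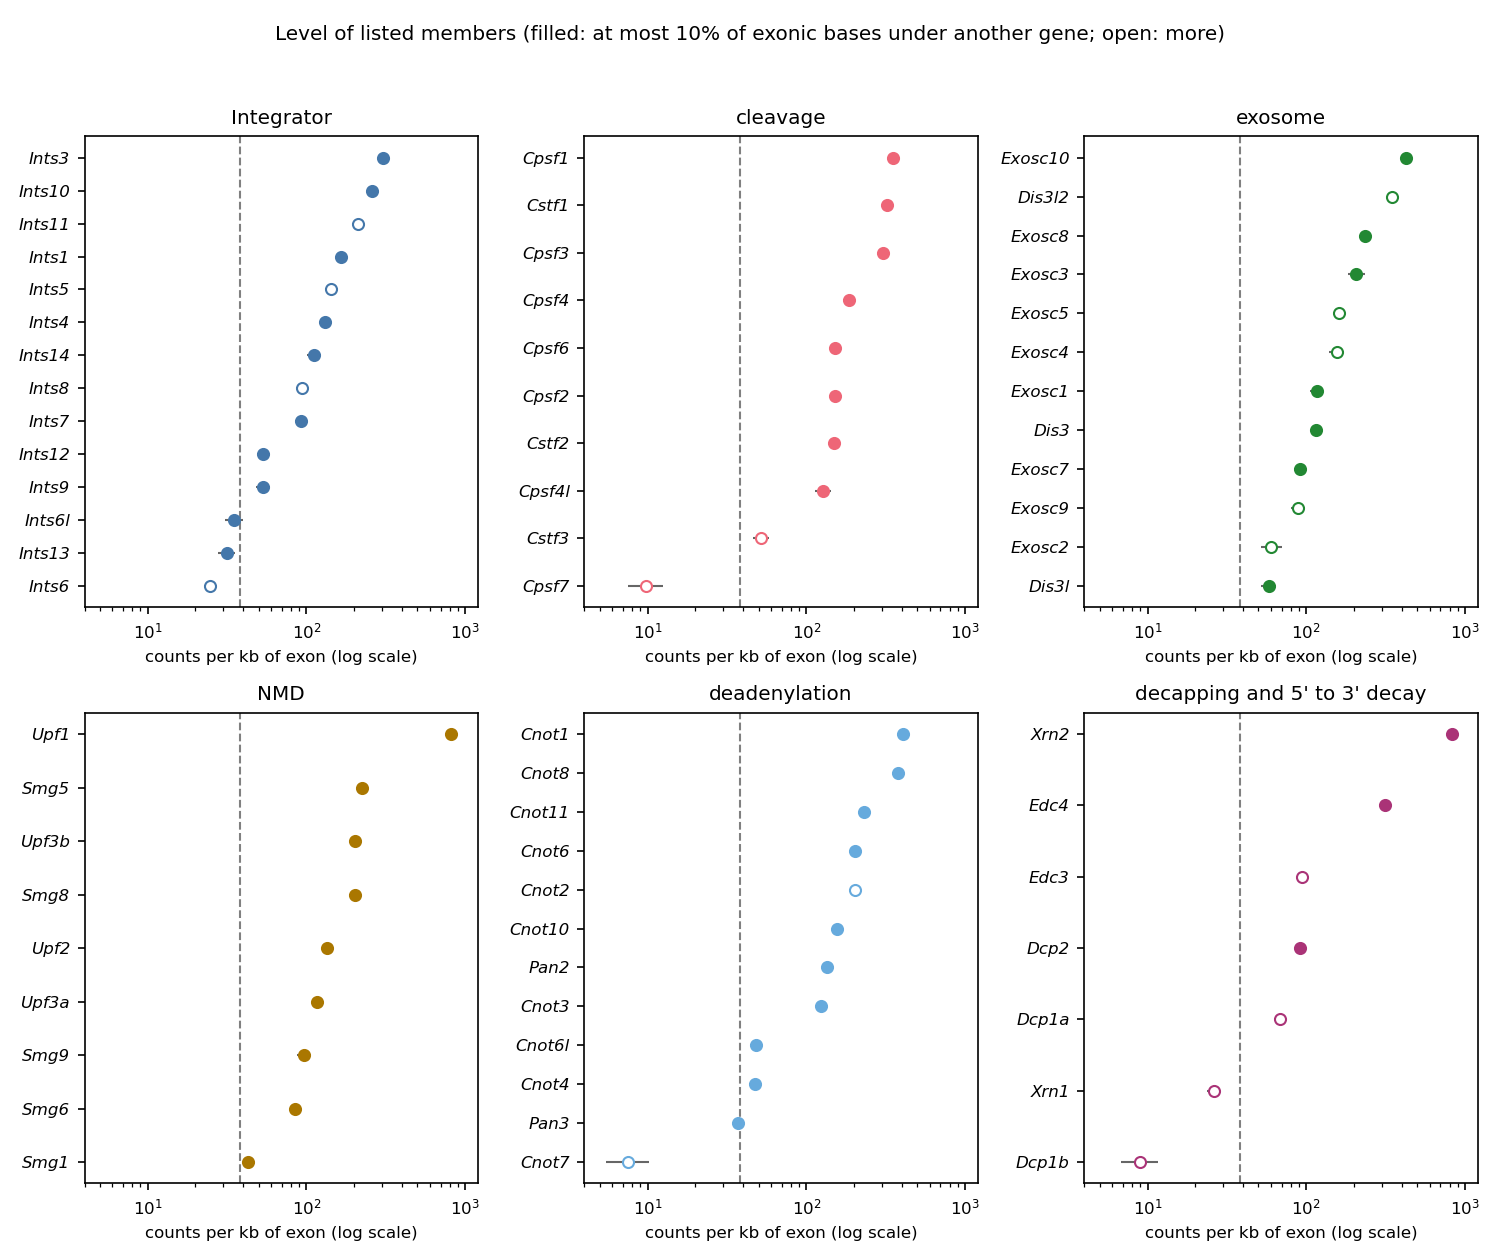
Counts per kilobase of exon (log scale) for 64 of the 65 listed members, in 6 groups, with exact 95% Poisson intervals; the dashed line is the median of all matched genes, 38.2. Xrn2 and Upf1 stand highest, at 824 and 815, and Cnot7, Dcp1b and Cpsf7 lie lowest, below 10.

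The groups overlapped widely. Medians per kilobase of exon were 168 for NMD, 152 for cleavage, 146 for deadenylation, 136 for the exosome, 102 for Integrator and 91.6 for decapping with 5' to 3' decay. Every group spanned more than a 7-fold range, from 7.35-fold in the exosome to 91.6-fold in decapping with 5' to 3' decay. The order of the medians depended on the length used. For exonic bases free of other genes, here and below, the whole count of a gene was divided by their length. Reads from covered bases were not taken out. Integrator stayed in the lower part, among the 2 lowest of 6, whether the count was divided by merged exons, by the longest transcript, by exonic bases free of other genes or by the whole gene span, and also among overlap-free genes only. The first place went to NMD, deadenylation, the exosome, cleavage or decapping, depending on that choice. With 1 value per gene the groups were not tested against each other.

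The missing members, and some of the lowest, lay under other genes. The 4 members not listed, Ints2, Cstf2t, Exosc6 and Cnot9, were the only members whose whole span was inside another annotated gene (Brip1os, Prkg1, Aars and Usp37). Over all annotated genes, 5.21% of 1266 genes placed like this were listed, against 70.7% of genes with at most 10% of their exonic bases inside another gene's span. Cstf2t, a gene inside Prkg1 on the opposite strand, shares no exonic base with it. Among listed members, 48 had at most 10% overlap and a median of 150.3 counts per kilobase, 13 had over 10 to 50% and a median of 94.6, and 4 had more and a median of 17.3. These 4 were Cpsf7 with 83.3% of its exonic bases covered, Cnot7 with 78.5%, Exosc2 with 59.1% and Ints6 with 53.0%, all by genes on the other strand. Exosc2 was not among the lowest, at 60.2 counts per kilobase, while Dcp1b and Xrn1 were low, at 8.99 and 26.0, with 13.1% and 23.9% covered. The same classes over all listed genes had medians of 43.2, 33.5 and 8.77. The handling of reads over 2 genes was not given in the sources used here, and the part of overlap in any single low value was not tested. The order of rows in the table matched that of counts divided by gene span (Spearman rho 0.9999 over genes, which are not independent). Whether intronic reads were counted was not stated either.

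**Figure D2:**
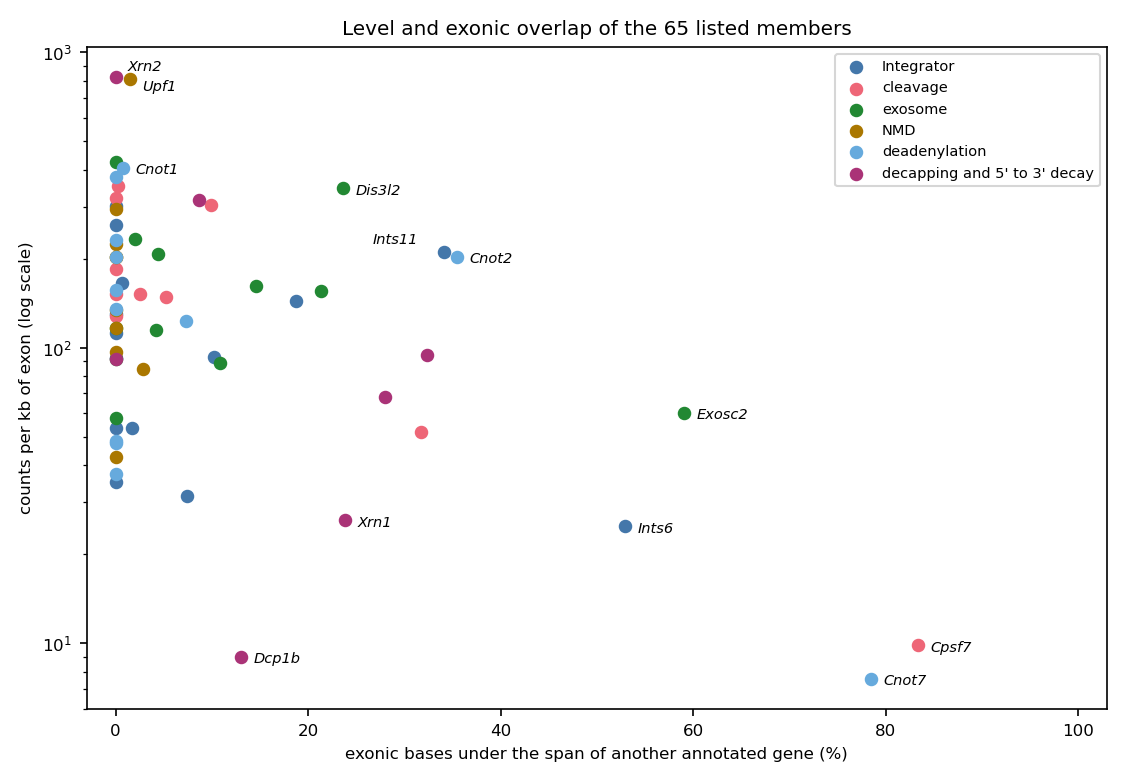
Counts per kilobase of exon (log scale) against the percentage of exonic bases that lie within another gene's span, 1 point for each of the 65 listed members, coloured by group. Cnot7 and Cpsf7, with 78.5% and 83.3% covered, are at 7.56 and 9.82, while Dcp1b is at 8.99 with 13.1% covered.

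The promoter windows found for the machinery held no TATA box, and their median ratio of observed to expected CpG was above that of all promoters. RefSeq promoter windows on GRCm38.p6, taken as the 250 bases before the RefSeq start, were found for 58 of 69 members, 54 of them listed. For 9 of the 58 that start lay over 100 bases from the gene start in GENCODE M21. None of the 58 held TATAAA, against 13.0% of all 27025 promoters and 5.97% of those of genes at CPM 1 or more. The set of all promoters, here and below, was not limited to protein-coding genes. GGGCGG, the GC box, was in 67.2% of member windows, 33.1% of all and 61.3% of those of genes at CPM 1 or more. GCATGCGC, the core of the NRF1 motif, was in 6 of 58, or 10.3%, against 2.33% of all and 4.71% of those of genes at CPM 1 or more. The ETS motif CCGGAAGT was in 6.90% of member windows, 2.95% of all and 5.98% of those of genes at CPM 1 or more. CCAAT was in 39.7%, 34.5% and 36.9% of the same sets. AAGATGGC, a YY1 motif, and CTCGCGAG were each in 2 member windows, or 3.45%. AAGATGGC was in 1.58% of all windows and 1.92% of those of genes at CPM 1 or more, and CTCGCGAG in 0.796% and 1.75%. TGACGTCA, the cyclic AMP response element, was in 1.72% of member windows, 1.62% of all and 2.74% of those of genes at CPM 1 or more. For the E-box CACGTG these shares were 5.17%, 6.04% and 8.63%. Both strands were searched, and these counts were not tested. The median GC content was 62.6% in the member windows and 52.0% in all, and the ratio of observed to expected CpG was 0.864 and 0.379. For genes at CPM 1 or more the same medians were 60.4% and 0.737. Single member windows ranged from 0.315 to 1.24 in the CpG ratio.

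By counts per kilobase of exon, the highest members were Xrn2 and Upf1, and the lowest overlap-free member was Ints13. Their windows are shown 5' to 3' on the strand of the gene, with matches to any of the 9 motifs in capitals. They lie at chr2:147012749-147012998 (plus strand), chr8:70353280-70353529 (minus strand) and chr6:146577836-146578085 (minus strand) of GRCm38.p6. The Upf1 window holds an NRF1 match and GC boxes, the Ints13 window holds CTCGCGAG, GC boxes and an inverted CCAAT, and the Xrn2 window holds none of the 9.
Xrn2: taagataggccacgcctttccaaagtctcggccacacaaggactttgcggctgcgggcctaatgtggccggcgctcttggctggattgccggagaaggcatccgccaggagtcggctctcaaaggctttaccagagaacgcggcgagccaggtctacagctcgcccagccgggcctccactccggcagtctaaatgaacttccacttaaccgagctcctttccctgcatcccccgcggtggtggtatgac
Upf1: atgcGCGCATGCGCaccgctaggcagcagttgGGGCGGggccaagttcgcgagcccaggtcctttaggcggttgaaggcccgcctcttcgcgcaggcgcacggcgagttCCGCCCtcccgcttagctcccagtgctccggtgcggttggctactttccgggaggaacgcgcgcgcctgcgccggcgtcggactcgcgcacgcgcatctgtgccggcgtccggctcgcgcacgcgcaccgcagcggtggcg
Ints13: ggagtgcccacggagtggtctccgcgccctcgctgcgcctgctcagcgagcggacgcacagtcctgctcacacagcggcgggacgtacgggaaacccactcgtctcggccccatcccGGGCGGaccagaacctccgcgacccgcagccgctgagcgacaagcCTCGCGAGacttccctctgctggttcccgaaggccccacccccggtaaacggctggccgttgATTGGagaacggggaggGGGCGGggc

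Integrator subunits ranged over 12.2-fold per kilobase of exon, and 11 of 14 listed ones were above the median of all genes. Ints3, which also belongs to a DNA repair complex that binds single strands, was highest on that scale with 1715 counts, or 302 per kilobase. Ints10 followed with 1786 counts (259 per kilobase), while Ints13 and Ints14, its neighbours in the same module, had 268 and 366 counts (31.6 and 112). The first place changed with the length used. Per kilobase it was Ints10 over the longest transcripts (420), Ints11 over exonic bases free of other genes (320) and Ints5 over the span (96.4). The scaffold genes Ints1 and Ints7 had 1537 and 673 counts, or 166 and 92.0 per kilobase. In the cleavage module the endonuclease gene Ints11 had 646 counts (211 per kilobase, with 34.1% of its exons covered), and its partners Ints4 and Ints9 had 918 and 364 (130.4 and 53.4). Members of the module that contacts protein phosphatase 2A were Ints5 with 471 counts, Ints8 with 697 and Ints6 with 417. They had 144, 93.3 and 24.8 counts per kilobase. Its alternative subunit Ints6l had 251 counts (35.0), and Ints12, which carries a PHD finger, had 426 (53.6). The 3 members under the median of all genes were Ints6, Ints6l and Ints13.

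Cleavage factors were among the more even groups per kilobase of exon once covered genes were set aside. On that scale CPSF subunits lay within a 2.75-fold range, from Cpsf4l at 128 counts per kilobase to Cpsf1, the large subunit, at 353. By CPM they spanned 6.91-fold, and over the longest transcripts they ran from Cpsf2 at 152 to Cpsf3 at 644. Their counts were 1989 for Cpsf1, 870 (152 per kilobase) for Cpsf2 and 1610 (305) for Cpsf3, the endonuclease that cuts the messenger. Cpsf4, which helps to read the poly(A) signal, had 665 counts (185 per kilobase), and Cpsf4l, its paralog, had 288. In CstF, which binds the sequence behind the cut, Cstf1 had 1122 counts (320.2 per kilobase), Cstf2 1366 (149) and Cstf3 305 (51.9, with 31.7% of its exons covered). Cpsf6 and Cpsf7 encode alternative large subunits of cleavage factor I, which binds UGUA. They had 1603 and 63 counts, or 153 and 9.82 per kilobase. The same whole counts divided by exonic bases free of other genes gave 153 and 58.9. The messenger endonuclease Cpsf3 exceeded the related Integrator endonuclease Ints11 by 1.45-fold per kilobase (binomial interval 1.32 to 1.59). Over exonic bases free of other genes the ratio was 1.06 (0.966 to 1.16), and over the longest transcripts 2.36 (2.15 to 2.59).

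The 12 listed exosome genes were all above the median of all genes per kilobase of exon, and 2 nucleases led them on that scale. By CPM 11 of the 12 were above it, with Exosc2 at 17.4 against 18.3. Exosc10, the nuclear exonuclease that joins the core, had 1530 counts, or 426 per kilobase of exon (405 to 448). Dis3l2, which degrades uridylated RNAs without the exosome, had 3082 counts (346 per kilobase), Dis3, the main nuclear catalytic subunit, 890 (115) and the cytoplasmic Dis3l 316 (57.9). Dis3l2 also had the longest span of any member, 346 kb, and 23.7% of its exonic bases lay under other genes. Per kilobase of span it was the lowest listed gene of this group, at 8.90 counts. By that length Exosc8 was the highest at 150, with Exosc10 at 63.8. Of 6 barrel subunits 5 were listed, without Exosc6, and these were close to each other per kilobase of exon. They ran from 88.6 for Exosc9 to 233 for Exosc8, a 2.63-fold range. By CPM they spanned 3.36-fold, and per kilobase of span they ran from 24.0 for Exosc7 to 150 for Exosc8. Their counts were 302 (155 per kilobase) for Exosc4, 1014 (162) for Exosc5, 550 (91.5) for Exosc7, 1009 for Exosc8 and 417 for Exosc9. The cap subunits, which bind RNA at the entry, had 471 counts for Exosc1, 174 for Exosc2 and 274 for Exosc3, or 116, 60.2 and 207 per kilobase. Exosc10 stood above Dis3 by 3.71-fold per kilobase (3.41 to 4.03), and by 1.76-fold (1.62 to 1.92) when whole spans were used.

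NMD genes were led by the helicase gene Upf1 and had no member with over 10% overlap. Upf1 (chromosome 8, 70331525 to 70353278) had 3763 counts, or 815 per kilobase (789 to 841), which exceeded 95.8% of matched genes. Its binding partners Upf2, Upf3a and Upf3b had 735, 683 and 809 counts, or 134, 116 and 202 per kilobase. Smg1, the kinase that phosphorylates Upf1, had 1025 counts but only 42.7 per kilobase, the lowest of the group, over 24.0 kb of merged exons. Its regulators Smg8 and Smg9 had 650 and 359 counts (202 and 97.0). Among the factors that bind phosphorylated Upf1, Smg5 had 1560 counts (224 per kilobase) and the endonuclease Smg6 had 717 (84.8). All 10 members exceeded the median of all genes.

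Deadenylation was dominated in counts by Cnot1, the scaffold of CCR4-NOT. Cnot1 (chromosome 8, 95719451 to 95807464) had 6984 counts, the most of any member, or 697 CPM (681 to 714) and 407 per kilobase. Its other non-catalytic partners had 825 counts for Cnot2, 876 for Cnot3, 1037 for Cnot10 and 815 for Cnot11, which gave 202, 123, 157 and 232 per kilobase. Cnot4, a ubiquitin ligase, had 465 counts (47.6). Among the nucleases, Cnot8 had 994 counts (377 per kilobase), Cnot6 1344 (203), Cnot6l 500 (48.5) and Cnot7 44 (7.56). The whole Cnot7 count divided by exonic bases free of other genes gave 35.2 per kilobase. Pan2, the nuclease of the other deadenylase, had 1147 counts (135), and its partner Pan3 had 558 (37.3). Pan2 exceeded Pan3 by 3.63-fold per kilobase (3.28 to 4.02), by 2.06-fold with no length and by 13.5-fold (12.2 to 15.0) per kilobase of span.

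Decapping and 5' to 3' decay held the widest range per kilobase of exon, 91.6-fold from Xrn2 to Dcp1b, while by CPM deadenylation spanned 159-fold and this group 57.5-fold. Xrn2, which digests the RNA left behind the cut and helps to end transcription, had 3280 counts. That gave 824 per kilobase of exon (796 to 853), the highest of all 65 members on that scale. The interval overlapped that of Upf1 (789 to 841). Over exonic bases free of other genes Upf1 was at 827 and Xrn2 at 824, and per kilobase of span they were at 173 and 50.5. Xrn1, which digests decapped messengers, had 484 counts, or 26.0 per kilobase over 18.6 kb of merged exons. Edc4, a scaffold of the decapping complex, had 1733 counts (315), and Edc3 had 549 (94.6). Dcp2, the decapping enzyme, had 797 counts (91.6), and its activators Dcp1a and Dcp1b had 559 and 57 (67.9 and 8.99).

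Levels were compared in 10 pairs of paralogs, and 5 of them kept their order, with intervals away from 1, under every length used. None of the pairs shared a 50-base stretch of annotated transcript. Per kilobase of exon, Xrn2 exceeded Xrn1 by 31.6-fold (28.7 to 34.9), and by 6.78-fold to 24.1-fold under other lengths or none. Cnot8 exceeded Cnot7 by 49.9-fold (36.9 to 69.1), and by 10.7-fold (7.93 to 14.9) over exonic bases free of other genes. Dcp1a exceeded Dcp1b by 7.55-fold (5.74 to 10.1), and by at most 9.81-fold in the other settings. Cnot6 exceeded Cnot6l by 4.19-fold (3.78 to 4.66), with 2.69-fold for no length and 6.12-fold per span. Dis3 exceeded Dis3l by 1.98-fold (1.74 to 2.26), and by up to 3.96-fold per span.

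The other 5 pairs changed order, or had an interval that included 1, under at least 1 length. Dis3l2 exceeded Dis3 by 3.02-fold (2.80 to 3.25) per kilobase of exon, but per kilobase of span the ratio was 0.246 (0.228 to 0.265). Against Dis3l, Dis3l2 was 5.98-fold higher (5.33 to 6.74) per kilobase of exon and at 0.973 (0.866 to 1.10) per span. Upf3b, on the X chromosome, exceeded Upf3a by 1.74-fold (1.57 to 1.93), with 0.863 (0.778 to 0.957) per span. Cpsf4 exceeded Cpsf4l by 1.44-fold (1.25 to 1.66), and by 1.07-fold (0.929 to 1.23) over the longest transcripts. Ints6l over Ints6 was 1.41 (1.20 to 1.65) per kilobase of exon but 0.663 (0.565 to 0.778) over exonic bases free of other genes.

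**Figure D3:**
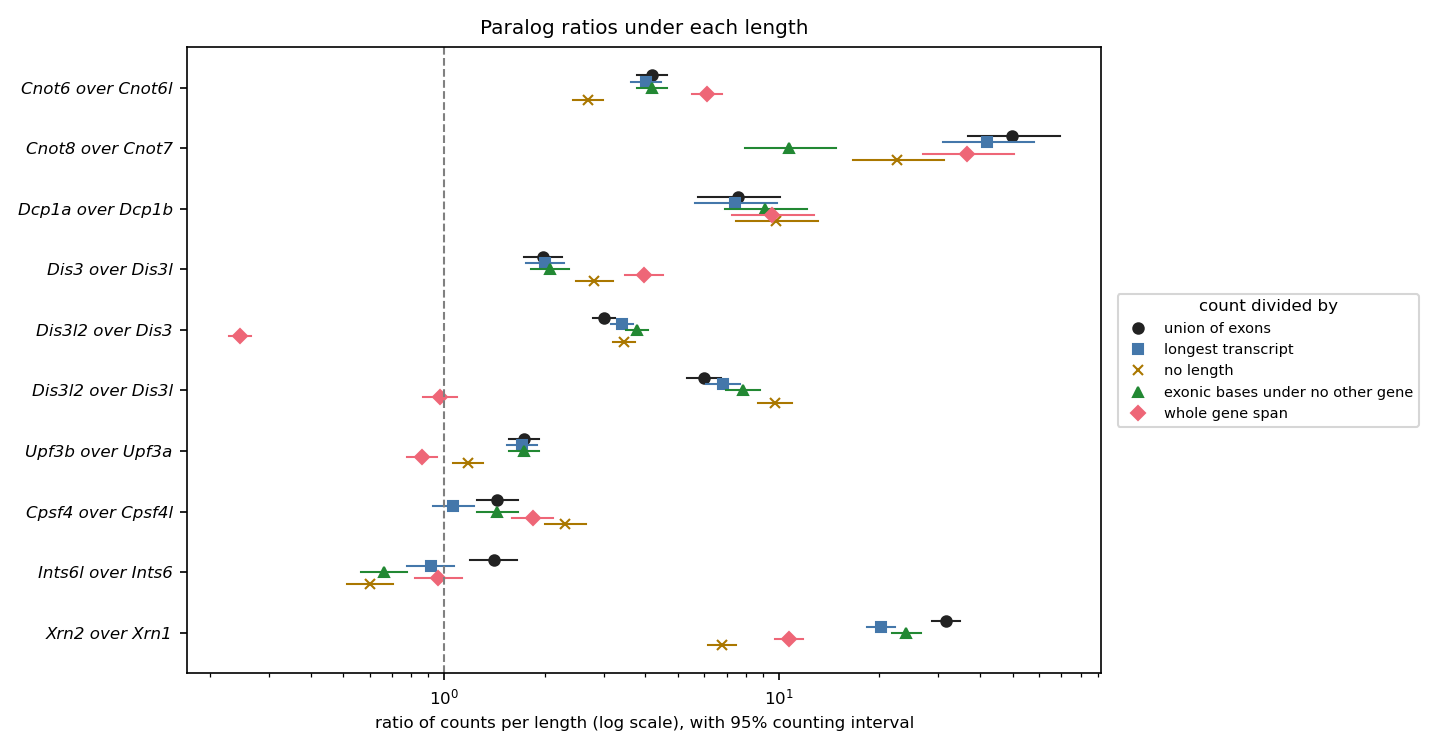
Ratios of paralogs (log scale) with exact 95% binomial intervals of the counts, for the count divided by 4 lengths or by none; the dashed line marks equal levels. Xrn2 over Xrn1, Cnot8 over Cnot7, Dcp1a over Dcp1b, Cnot6 over Cnot6l and Dis3 over Dis3l are above 1 under each, whereas Dis3l2, Upf3b and Ints6l ratios cross 1.

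Genes that work with these complexes were described from 9 lists. Of 86 annotated partner genes, 81 were listed and each of these passed CPM 1, against 54.7% of all 21897 annotated protein-coding genes. Not listed were 5 of the 86, against 32.1% of all annotated genes. The listed partners had a median of 65.6 CPM and 133 counts per kilobase of exon, beside 71.6 CPM and 134 for the members. The median was 18.3 CPM for all listed genes and 38.2 counts per kilobase for all matched genes. Cleavage and polyadenylation partners were led by Nudt21, the UGUA-binding subunit, with 2909 counts, then Sympk with 2101 and the poly(A) polymerase gene Papola with 2084. Pabpn1, a nuclear poly(A)-binding protein gene with 99.0% of its exonic bases covered, was lowest with 11. Nuclear exosome cofactors were led by the helicase gene Mtrex with 1147 counts, then Srrt with 1010 and the cap-binding gene Ncbp2 with 1002, and lowest at Zcchc7 with 275. Zc3h18 was not listed and lay inside another gene. Cytoplasmic exosome and ribosome rescue cofactors were led by Wdr61 with 1094 counts, Hbs1l with 786 and Ttc37 with 708, and lowest at Skiv2l with 472. Pelo was not listed and lay inside another gene.

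Exon junction and NMD partners had the highest median of these lists, 692 counts per kilobase of exon over 11 genes. The release factor gene Etf1 had 4595 counts, the exon junction helicase gene Eif4a3 2389 and Ruvbl2 2288, and Magohb was lowest with 94. Decapping partners were led by Lsm4 with 2287 counts, the helicase gene Ddx6 with 2012 and Lsm3 with 1028, and lowest at Nudt16 with 94. Eif4enif1 was not listed and lay inside another gene. Deadenylation partners were led by the poly(A)-binding protein genes Pabpc1 with 26406 counts and Pabpc4 with 3035, then Pum2 with 1624, and lowest at Nanos3 with 78. The germline genes Btg4 and Nanos2 were not listed, with 17.4% and 49.0% of their exonic bases covered.

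The other 3 lists, with 5, 5 and 2 listed genes, had none at CPM 100 or more, a level that 15.5% of all listed genes reached. The lists are too short to be set against that share. Integrator partners, 5 genes with a median of 54.2 counts per kilobase of exon, were led by Inip with 431 counts, Wdr73 with 406 and Brat1 with 297, and lowest at Nabp1 with 124. Histone 3' end factors had a median of 100.4, led by the stem-loop binding protein gene Slbp with 925 counts, Casp8ap2 with 685 and Lsm11 with 286, and lowest at Zfp473 with 107. The terminal uridylyltransferases Tut4 and Tut7 had 935 and 345 counts.

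**Figure D4:**
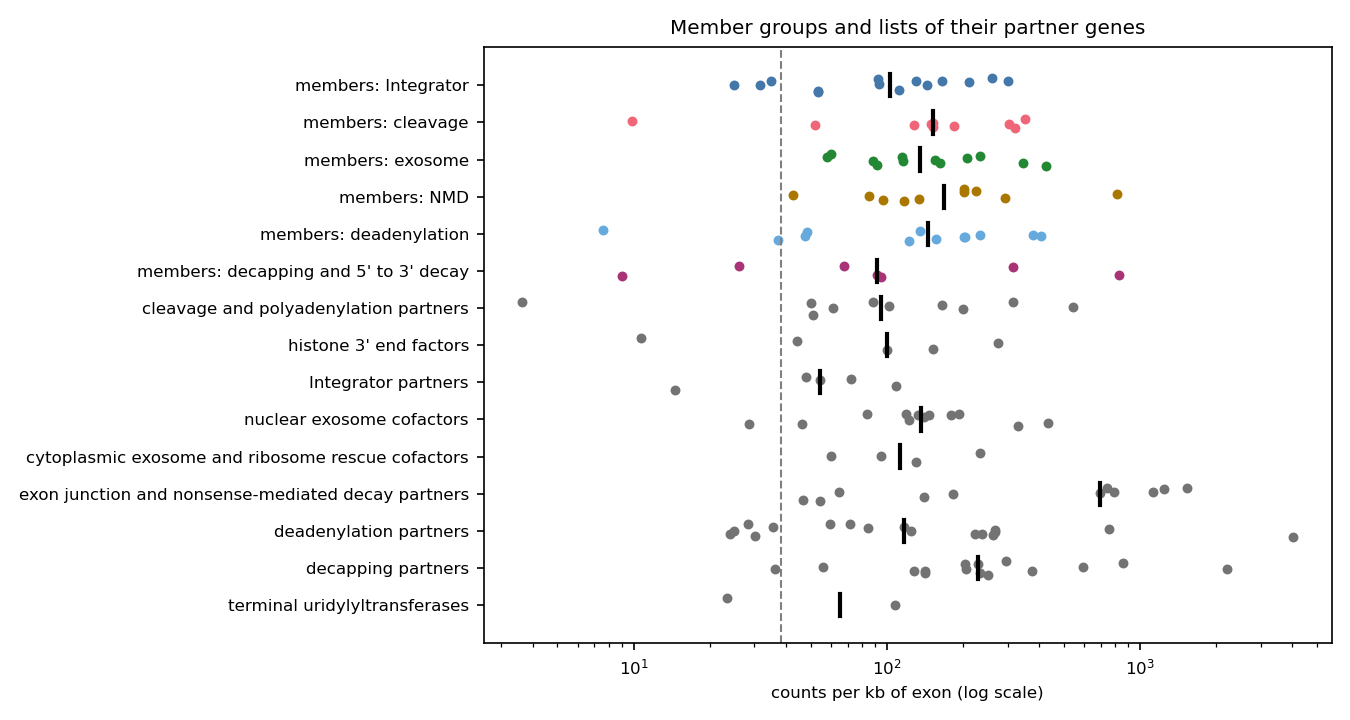
Counts per kilobase of exon (log scale) of listed members by group, in colour, and of listed partner genes by list, in grey, 1 point per gene, with a bar at each median and a dashed line at 38.2, the median of all matched genes. The median of the exon junction and NMD partners, 692, lies to the right of the medians of the 6 member groups, 91.6 to 168.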

How the data were processed

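Poly(A) RNA was purified, fragmented, ligated to adaptors, reverse-transcribed and sequenced, per the labels' protocols. The submitters' processing notes name HISAT2, SAMtools, featureCounts (Subread 1.6.4), Trimmomatic 0.38 and GRCm38.p6. The strand setting, the counted feature and the annotation release were not given in the sources used here. Raw counts were deposited by the authors as 1 column of whole numbers from 1 to 117610 for genes with at least 1 count. Whether it pools both libraries was not stated. Counts were scaled to CPM by the total of 10017978 and divided by merged exon length in GENCODE M21 (GRCm38). The other lengths, exonic bases free of other genes among them, divided the same whole counts. Symbols matched directly for 14879 genes, and 248 with 1.04% of the counts did not. Overlap was the share of exonic bases inside the span of any other gene, and at most 10% was called overlap-free. Single values have exact Poisson intervals, ratios exact binomial ones. No test between groups was possible with 1 column. The functions were tested on simulated counts. Members, lists and paralog pairs were chosen with earlier results of these data known. Every member could be named, and 1 is not reported here. From each partner list the 3 highest, the lowest and the unlisted genes by CPM were named. Promoter motifs were picked after a first look at their counts. Alternatives were other minimums, lengths, overlap limits, group assignments and pseudocounts. Scripts ran in Python 3.11.15 with pandas 2.3.3, scipy 1.17.1, matplotlib 3.10.9 and numpy 2.4.6.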

Additional observations from a re-analysis of the deposited data

How the results depend on the processing

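No paired analysis was possible because the counts have 1 column and the study 1 group, and no replicate could be left out. The minimum for detection left 65 members at CPM 0.5 and at 10 counts, and 64 at CPM 5. The median log2 difference of the members from all listed genes was 1.96 with a pseudocount of 0.1 and 1.91 with 1. Among overlap-free genes, median CPM was 124 for cleavage, 93.3 for deadenylation and 173 for decapping with 5' to 3' decay (3 genes left). Median counts per kilobase of exon were then 169 for cleavage, 116 for the exosome and 315 for decapping with 5' to 3' decay. With an overlap limit of 50%, chosen after seeing the data, median CPM was 64.5 for Integrator and 112 for cleavage. With Xrn2 placed in cleavage that median was also 112. Per kilobase of the longest transcript, medians were 136 for Integrator, 217 for cleavage, 186 for the exosome, 193 for NMD and 220.1 for deadenylation, because that length is shorter than merged exons. Over exonic bases free of other genes, chosen after seeing the data, the exosome median was 168.

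Paralog ratios without any length were 2.69 for Cnot6 over Cnot6l, 22.6 for Cnot8 over Cnot7, 2.82 for Dis3 over Dis3l, 3.46 for Dis3l2 over Dis3 and 9.75 for Dis3l2 over Dis3l. They were 1.18 for Upf3b over Upf3a, 2.31 for Cpsf4 over Cpsf4l, 6.78 for Xrn2 over Xrn1 and 0.602 for Ints6l over Ints6. Over longest transcripts they were 3.40 for Dis3l2 over Dis3, 6.81 for Dis3l2 over Dis3l, 1.07 for Cpsf4 over Cpsf4l, 0.914 for Ints6l over Ints6 and 20.2 for Xrn2 over Xrn1. Over exonic bases free of other genes they were 10.7 for Cnot8 over Cnot7, 3.79 for Dis3l2 over Dis3, 7.83 for Dis3l2 over Dis3l, 0.663 for Ints6l over Ints6 and 24.1 for Xrn2 over Xrn1. Over whole spans, also chosen after seeing the data, they were 6.12 for Cnot6 over Cnot6l, 36.5 for Cnot8 over Cnot7, 3.96 for Dis3 over Dis3l, 0.246 for Dis3l2 over Dis3 and 0.973 for Dis3l2 over Dis3l. They were 0.863 for Upf3b over Upf3a, 1.84 for Cpsf4 over Cpsf4l, 0.964 for Ints6l over Ints6 and 10.7 for Xrn2 over Xrn1. The cause of the reversals was not tested.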

Other observations

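Some members share transcript sequence with other annotated genes. All 50-base stretches of Exosc6 also occur in transcripts of Aars. For listed members the share was 21.7% for Ints5, 14.1% for Ints14, 8.83% for Cnot3, 7.82% for Cnot8, 6.18% for Edc4 and 4.28% for Cnot1. The other gene sharing most was Gm49416 for Ints5, Gm18860 for Cnot8 and Gm6158 for Cnot1. The handling of reads that match several places was not stated, and these counts are uncertain by an amount that was not tested.

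The members with X-linked genes were Cstf2, Upf3b and Ints6l. They had 149, 202 and 35.0 counts per kilobase of exon, and their counts were not split by allele.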
